A study of Homo sapiens with 4 samples.

Results

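The genes described here are 31 genes of cholesterol and fatty acid synthesis, taken by symbol from a list, out of 26364 gene symbols in the count table. The list was chosen with earlier results of these data known, so shares of the 31 genes set beside those of all genes are descriptions only. They comprise 5 genes of the sterol sensor that controls both pathways, 7 genes of the mevalonate steps, 10 genes that act from squalene to cholesterol or carry it, and 9 genes that make, elongate or desaturate fatty acids. RNA sequencing was done on Ishikawa cells, a human line from an endometrioid adenocarcinoma, in which ESR1, the gene for estrogen receptor alpha, carried the ligand-binding-domain mutation ER-Y537S. All 4 libraries carried the mutation and came from hormone-deprived cultures, in phenol-red free medium with charcoal-stripped serum. There were 2 groups of 2 libraries, with each of 2 mutant clones given the vehicle DMSO (0.1%) or 10 nM estradiol (E2) for 8 h. The column names of the count table carry a tag, A4 or B212, that the labels do not link to the clone numbers, so libraries are named here by tag and treatment. Each clone is a single line of cells, and no library without the mutation was used.

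Cells make cholesterol from acetyl-CoA by way of mevalonate, farnesyl pyrophosphate and squalene, and they make fatty acids from the same acetyl-CoA. Both pathways are switched on by the sterol regulatory element-binding proteins (SREBPs), which are held in the endoplasmic reticulum by SCAP and the INSIG proteins while sterols are plentiful and are cut free and sent to the nucleus when sterols run low. SREBP-2, from SREBF2, acts mainly on sterol genes, and SREBP-1, from SREBF1, mainly on fatty acid genes. Dividing epithelial cells, of the endometrium and elsewhere, use both products for new membrane.

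SREBPs act at promoters together with factors that bind CCAAT boxes (NF-Y) and GC boxes (SP1), so the 250 bases before the gene start were read for these letters. RefSeq windows (build GRCh38.p14) were found for 27 of the 31 genes. ACAT2, FDFT1, SQLE and FASN had none. Where a gene had several windows, as 9 did, the one nearest the start of its longest coding transcript was used. Given here are the windows of the regulators SREBF1 (chr17:17836987-17837236, minus strand) and SREBF2 (chr22:41832855-41833104, plus strand), and IDI1 (chr10:1048887-1049136, minus strand) and STARD4 (chr5:111512536-111512785, minus strand), since IDI1 and STARD4 were higher and SREBF1 lower with E2 in the fit described further on. Each runs 5′ to 3′ on the gene's strand, and capitals mark TCACNCCAC (an SREBP site), CCAAT and GGGCGG (a GC box), or their reverse complements.
SREBF1: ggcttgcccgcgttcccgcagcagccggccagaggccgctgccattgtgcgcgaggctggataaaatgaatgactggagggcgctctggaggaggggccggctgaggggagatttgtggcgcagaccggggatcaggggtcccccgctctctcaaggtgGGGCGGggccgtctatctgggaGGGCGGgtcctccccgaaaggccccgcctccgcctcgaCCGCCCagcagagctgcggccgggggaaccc
SREBF2: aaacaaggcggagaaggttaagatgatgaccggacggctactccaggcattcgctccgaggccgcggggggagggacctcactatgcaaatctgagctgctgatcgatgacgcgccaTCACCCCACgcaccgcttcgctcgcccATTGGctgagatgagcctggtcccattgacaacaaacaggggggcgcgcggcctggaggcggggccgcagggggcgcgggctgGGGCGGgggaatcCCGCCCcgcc
IDI1: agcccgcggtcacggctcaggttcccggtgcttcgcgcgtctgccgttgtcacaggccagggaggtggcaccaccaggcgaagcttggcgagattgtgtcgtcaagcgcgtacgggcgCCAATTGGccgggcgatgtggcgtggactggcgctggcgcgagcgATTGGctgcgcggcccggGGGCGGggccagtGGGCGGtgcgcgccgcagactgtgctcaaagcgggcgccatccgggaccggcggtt
STARD4: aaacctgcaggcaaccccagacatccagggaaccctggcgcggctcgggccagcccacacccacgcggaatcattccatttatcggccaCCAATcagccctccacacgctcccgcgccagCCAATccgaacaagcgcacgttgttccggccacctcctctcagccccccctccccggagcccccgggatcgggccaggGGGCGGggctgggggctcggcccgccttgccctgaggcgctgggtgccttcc

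The windows differed in which letters they held. SREBF2 had the SREBP site 133 bases before its start, followed by a CCAAT box on the opposite strand at 106 bases. IDI1 had 3 CCAAT boxes, an overlapping pair at 132 and 129 bases and a single one at 87 bases, and STARD4 had CCAAT boxes at 161 and 130 bases. The SREBF1 window held no CCAAT box and 3 GC boxes, at 91, 69 and 31 bases. The window of FADS2, also lower with E2 in that fit, is not printed and held no CCAAT box and 1 GC box, at 154 bases. Among genes not called for E2, the windows held from 0 CCAAT boxes, as in SCAP, to 5, as in MVK and NSDHL. A link of these letters with the E2 differences was not tested.

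Searched on both strands, CCAAT was found in 17 of the 27 windows (63.0%), against 32.5% of the 16378 windows of all tested genes and 32.0% of all 35116 windows. The CCAAT box was in 5 of 6 mevalonate windows and 7 of 8 windows of the later sterol genes, but in 3 of 8 fatty acid windows and 2 of 5 regulator windows. GGGCGG was found in 25 of 27 windows (92.6%), against 61.1% of the windows of tested genes and 42.6% of all windows. The SREBP site, sought only as an exact match to TCACNCCAC with any base at N, was found in 1 of 27 windows (SREBF2, 3.70%). The shares of the wider sets were 0.849% and 0.883%. Sites with other letters were not sought. AGGTCA, an arm of the estrogen response element, was found in 1 of 27 (ELOVL6), against 9.30% and 12.1%. The whole element, GGTCA and TGACC with 3 bases between, was in 0 of 27, against 0.0183% and 0.0399%. The sets are unlike, since each of the 27 genes has 1 window here while the wider sets count every window of a gene. The wider sets were not matched for base composition either. These matches describe letters in the windows and are not measured binding.

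The libraries held 71575816 to 85222856 counts, and E2 had the larger library of the A4 pair and the smaller of the B212 pair. All 31 genes passed the filter on low counts that left 15599 genes, with 975 to 104303 counts per library, so the counting error of a log2 difference between the libraries of a tag was 0.0064 to 0.063. All 6 epithelial markers and all 5 endometrial epithelial markers had over 10 counts in every library. So did 3 of 6 stromal, 2 of 4 immune, 1 of 3 endothelial and 1 of 5 fat cell markers. The summed level of 6 stromal markers was 35.1 to 130.4 CPM (counts scaled to a common library size), mainly COL1A1. The summed markers of endothelium were at 2.11 to 4.50 CPM (VWF 167 to 372 counts, PECAM1 0), those of immune cells at 1.64 to 2.45 CPM (CD68 92 to 176 and PTPRC 25 to 37 counts, CD3E 0) and those of fat cells at 0.422 to 0.532 CPM (PLIN1 30 to 38 counts, ADIPOQ 0). ESR1 had 6342 to 9163 counts, which do not check a point mutation.

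Together the 31 genes took 0.737% and 0.693% of the A4 DMSO and A4 E2 counts and 0.632% and 0.601% of the B212 DMSO and B212 E2 counts. Per kilobase of transcript, SCD, the desaturase that makes oleate, had the highest level (mean 215 CPM per kilobase over the 4 libraries, rank 205 of 14601 genes with a length). It was followed by FDFT1, the squalene synthase (169), HMGCS1, which makes HMG-CoA (113), and ACLY, which makes acetyl-CoA from citrate (109). The lowest were MVK, the mevalonate kinase (11.5), PMVK, which acts after it (10.8), and ELOVL6, which elongates palmitate (8.32, rank 6436). SREBF2 stood above SREBF1 in this measure (32.9 against 23.6), and INSIG1 above INSIG2 (76.5 against 16.7), in every library.

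**Figure D1:**
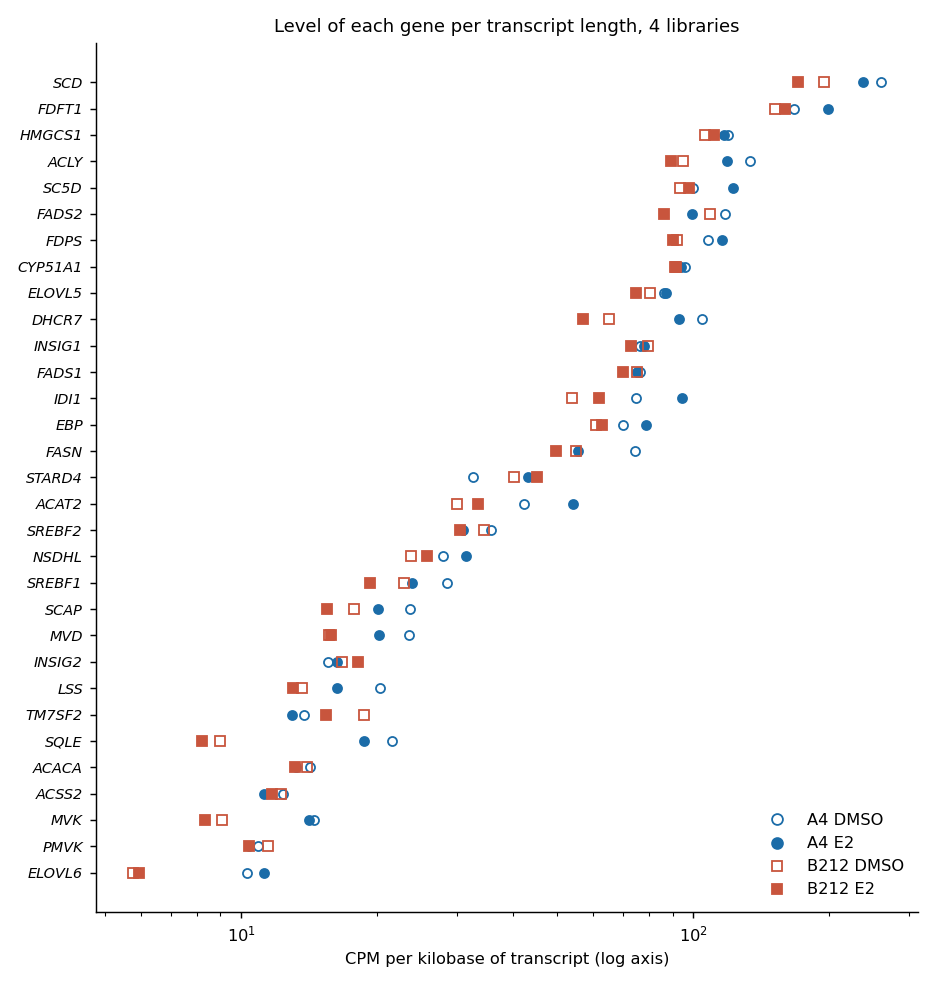
Level of each of the 31 genes in CPM per kilobase of transcript (log axis), with 1 point per library, open for DMSO and filled for E2. SCD is at the top and ELOVL6 at the bottom, and SQLE, MVK and ELOVL6 show B212 points (squares) well to the left of A4 points (circles).

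The effect of E2 was compared first over the DMSO and E2 groups with no term for the tag. None of the 31 genes passed an adjusted p of 0.05 in edgeR's quasi-likelihood test, as was the case for all 15599 genes tested (0% called). Without adjustment, 0 of the 31 and 150 of the 15599 genes had p under 0.05. The smallest p of the 31 was 0.0924 (FADS2, adjusted p = 0.9999 in edgeR). The spread within a group is that between the tags. It was wide for ACAT2, at 115 ± 27.5 CPM with DMSO and 139 ± 46.6 CPM with E2 (SD, n = 2 each), and narrower for STARD4, at 167 ± 24.5 and 203 ± 5.98 CPM. The common coefficient of variation between libraries was 32.2% here, and 5.99% once the tag entered as a block.

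E2 was then compared with DMSO within each tag, by entering the tag as a block. ACAT2, IDI1 and STARD4 were higher with E2, and SREBF1, FASN and FADS2 were lower. Each of the 6 differed by a small amount, with fitted E2 to DMSO ratios of 1.19 to 1.22 for the genes that rose and 0.819 to 0.837 for those that fell. That is 6 of 31 genes (19.4%), where 9.56% of all tested genes passed the same threshold, 6.13% higher and 3.44% lower. These shares were not matched for depth. The SE of this fit was 0.068 to 0.094 for the 31 genes and up to 0.935 over all tested genes. The genes that rose act in sterol synthesis and sterol transport, and those that fell were the SREBP-1 gene and 2 fatty acid genes. This fit has 1 residual degree of freedom and takes its spread from all genes.

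**Figure D2:**
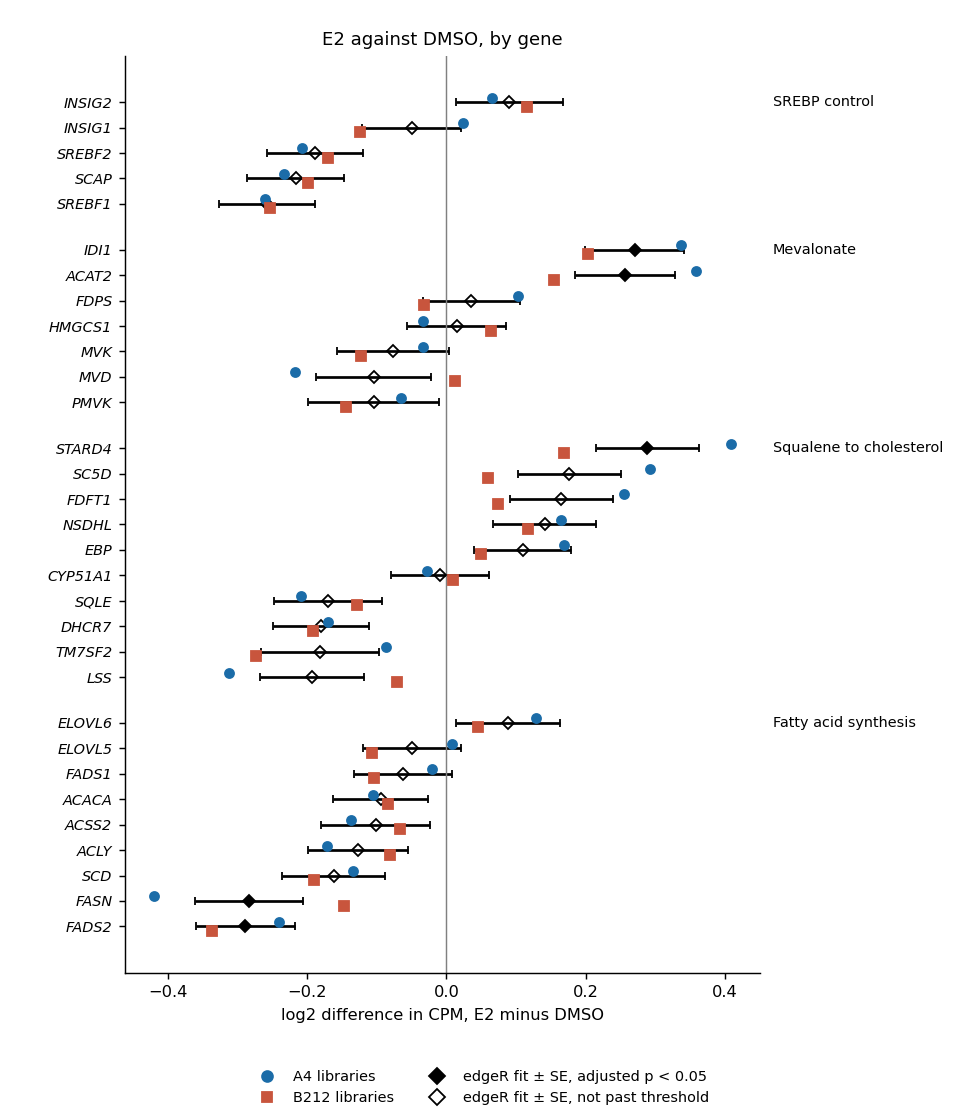
Log2 difference of E2 from DMSO for the 31 genes, in groups by role, with circles for A4, squares for B212 and diamonds with bars for the blocked edgeR fit ± SE. The 6 filled diamonds passed the threshold, with ACAT2, IDI1 and STARD4 right of 0 and SREBF1, FASN and FADS2 left of it.

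Among the regulators, SREBF1 had 8894 counts in A4 DMSO, 8316 in A4 E2, 8327 in B212 DMSO and 6000 in B212 E2. Scaled for library size, these were 121 and 101 CPM in A4, and 97.6 and 81.9 CPM in B212. E2 was lower than DMSO within each tag, while the A4 E2 value lay above the B212 DMSO value, so the treatment groups overlapped. The log2 fold change was -0.26 ± 0.07 (SE), with -0.26 in A4 and -0.25 in B212 (edgeR with the block, adjusted p = 0.0239). Its paralog SREBF2 had 14054, 13636, 15736 and 12016 counts in the same order. In CPM, SREBF2 went from 192 to 166 in A4 and from 184 to 164 in B212, with both E2 values under both DMSO values. Its fold change of -0.19 ± 0.07 did not pass (adjusted p = 0.0879 in edgeR), nor did that of SCAP, which escorts the SREBPs (-0.22 ± 0.07, adjusted p = 0.0547 in edgeR). INSIG1 and INSIG2, which retain the SCAP complex, were at -0.05 and 0.09 and did not pass. Of the 5 regulators, 0 rose, 1 fell (20.0%) and 4 did not pass, where 6.13% of all tested genes were higher and 3.44% lower.

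In the mevalonate steps, 2 of 7 genes rose (28.6%) and none fell, where 6.13% of all tested genes were higher and 3.44% lower. ACAT2, the cytosolic thiolase that joins acetyl-CoA units at the entry to the pathway, had 9833 counts in A4 DMSO, 14114 in A4 E2, 8144 in B212 DMSO and 7782 in B212 E2. Its CPM went from 134 to 172 in A4 and from 95.4 to 106 in B212. Both A4 libraries were above both B212 libraries, and within each tag E2 was higher. The log2 fold change was 0.26 ± 0.07, with 0.36 in A4 and 0.15 in B212 (edgeR with the block, adjusted p = 0.0305). Exons of ACAT2 overlap on the opposite strand those of the noncoding SOD2-OT1 over 45.8%, of SOD2 over 34.8% and of TCP1 over 12.5% of the ACAT2 exon bases. SOD2-OT1 has no value among the genes used here. The strand setting of the counting is not given in the sources used here. SOD2 was at -0.02 and TCP1 at 0.14 ± 0.07 (adjusted p = 0.216 in edgeR), neither of which passed, and the part of the overlap in the ACAT2 value was not tested.

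IDI1, which isomerizes isopentenyl pyrophosphate, had 18449 counts in A4 DMSO, 26094 in A4 E2, 15484 in B212 DMSO and 15311 in B212 E2. Its CPM rose from 252 to 318 in A4 and from 181 to 209 in B212, and B212 E2 stayed under A4 DMSO. The log2 fold change was 0.27 ± 0.07, with 0.34 and 0.20 in the tags (edgeR with the block, adjusted p = 0.0219). The other 5 mevalonate genes did not pass. HMGCS1 (0.01), FDPS, the farnesyl pyrophosphate synthase (0.04), and MVD, the mevalonate decarboxylase (-0.10), had E2 differences of opposite sign in the tags, while MVK (-0.08) and PMVK (-0.10) were below 0 in both. FDPS has 10 pseudogene copies and IDI1 has 3 in RefSeq, none of them among the genes tested, so reads shared with the copies could not be examined. FDPS exons overlap the antisense RUSC1-AS1 over 28.9% of their bases, and that RNA was at 0.0683 to 0.177 CPM.

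From squalene onwards, 1 of 10 genes rose and none fell. That is 10.0% called, near the 9.56% of all tested genes (6.13% higher and 3.44% lower). STARD4, a soluble carrier of cholesterol between membranes, had 10979 counts in A4 DMSO, 16324 in A4 E2, 15752 in B212 DMSO and 15207 in B212 E2. Its CPM went from 149.9 to 199 in A4 and from 185 to 207 in B212, so both E2 values were above both DMSO values. The log2 fold change was 0.29 ± 0.07, with 0.41 in A4 and 0.17 in B212 (edgeR with the block, adjusted p = 0.0193). The other 9 ranged from -0.19 for LSS, the lanosterol synthase, to 0.18 for SC5D, a desaturase near the end of the pathway. FDFT1 (0.16), SC5D, NSDHL (0.14) and EBP (0.11) were above 0 in both tags, and SQLE (-0.17), LSS, TM7SF2 (-0.18) and DHCR7 (-0.18) were below 0 in both. CYP51A1, the lanosterol demethylase, was at -0.01 with opposite signs in the tags.

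Among the fatty acid genes, 2 of 9 fell (22.2%) and none rose, where 3.44% of all tested genes were lower and 6.13% higher. FASN, the fatty acid synthase, had 46577 counts in A4 DMSO, 39004 in A4 E2, 40242 in B212 DMSO and 31215 in B212 E2. Its CPM went from 636 to 475 in A4 and from 471.5 to 426 in B212, with A4 DMSO far above the other 3 libraries and A4 E2 just above B212 DMSO. The log2 fold change was -0.28 ± 0.08, with -0.42 in A4 and -0.15 in B212 (edgeR with the block, adjusted p = 0.0270). FADS2, the desaturase that opens the synthesis of long polyunsaturated fatty acids, had 31290, 29659, 33660 and 22908 counts in the same order. In CPM, FADS2 went from 427 to 362 in A4 and from 394 to 313 in B212, so both E2 values were under both DMSO values. Its log2 fold change was -0.29 ± 0.07, with -0.24 and -0.34 in the tags (edgeR with the block, adjusted p = 0.0159).

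The desaturase FADS1, the neighbour of FADS2, had 25286, 27925, 29014 and 23178 counts, or 345 and 340.4 CPM in A4 and 339.9 and 316 CPM in B212. Its fold change of -0.06 ± 0.07 did not pass (adjusted p = 0.628 in edgeR). The exons of FADS1 and FADS2 share 142 bases on opposite strands. ACACA, the acetyl-CoA carboxylase (-0.09), ACLY (-0.13), SCD (-0.16) and ACSS2, which makes acetyl-CoA from acetate (-0.10), were below 0 in both tags and did not pass. Of the elongases, ELOVL6 was above 0 in both tags (0.09) and ELOVL5 (-0.05) had opposite signs.

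**Figure D3:**
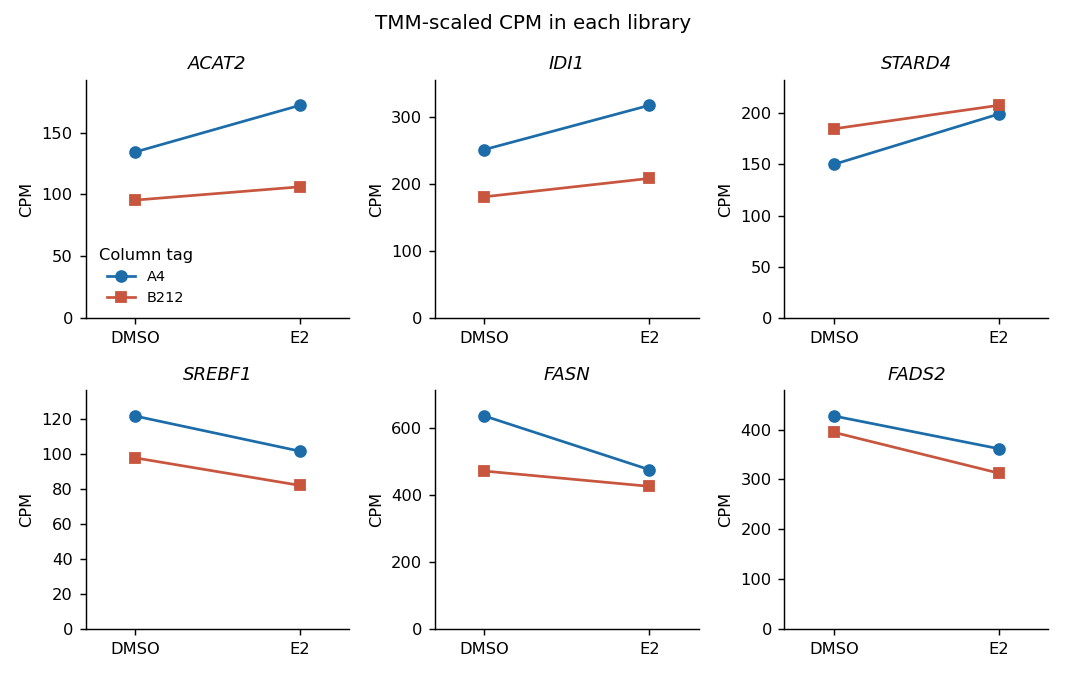
CPM of the 6 genes that passed the threshold for E2 in the blocked fit, from DMSO to E2, with a line per tag and each axis starting at 0. The lines of ACAT2, IDI1 and STARD4 go up and those of SREBF1, FASN and FADS2 go down in both tags, and for ACAT2 and IDI1 the gap between the tags is wider than the step from DMSO to E2.

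Over the 31 genes the median log2 fold change was -0.08, beside -0.01 over all tested genes. By tag it was -0.03 in A4 and -0.08 in B212. E2 was above DMSO in both tags for 9 genes and below in both for 16, and 6 genes had opposite signs. The same direction was thus seen for 80.6% of the 31, beside 70.2% of all tested genes. Summed by role, CPM of the mevalonate genes differed by 0.13 (A4) and 0.08 (B212) on the log2 scale, and those of the later sterol genes by 0.11 and 0.03. The sum of the fatty acid genes differed by -0.17 and -0.16, and that of the regulators by -0.12 and -0.15. Across the 31 genes, the E2 differences in A4 and in B212 had a Pearson r of 0.783, where r was 0.265 over 15528 genes. This is across genes of the same 4 libraries, and genes are not independent replicates. Neither the r values nor the shares with the same direction were matched for depth. Each of the 31 genes had at least 975 counts in every library, while the wider sets also hold genes with few counts, which carry more counting error.

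The E2 fold changes of the 31 genes moved with the base composition of their transcripts. Spearman's rho with GC content was -0.73 over the 31 genes and -0.28 over all genes, and rho with transcript length was -0.29 and -0.28. STARD4 and IDI1 had transcripts of 34.2% and 41.1% GC, while FADS2, SREBF1 and FASN were at 60.7%, 64.7% and 65.3%. ACAT2 was near the middle at 50.2%. When a smooth trend on length and GC content was removed from each library before the blocked fit, ACAT2 was the only one of the 31 that passed (log2 fold change 0.29, adjusted p = 0.0219 in edgeR), beside 4.50% of all tested genes. IDI1 was then at 0.20 (adjusted p = 0.0576), STARD4 at 0.18 (0.0968), FADS2 at -0.18 (0.144), SREBF1 at -0.12 (0.279) and FASN at -0.09 (0.398), all in edgeR. The 6 directions did not change, and FASN moved most.

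**Figure D4:**
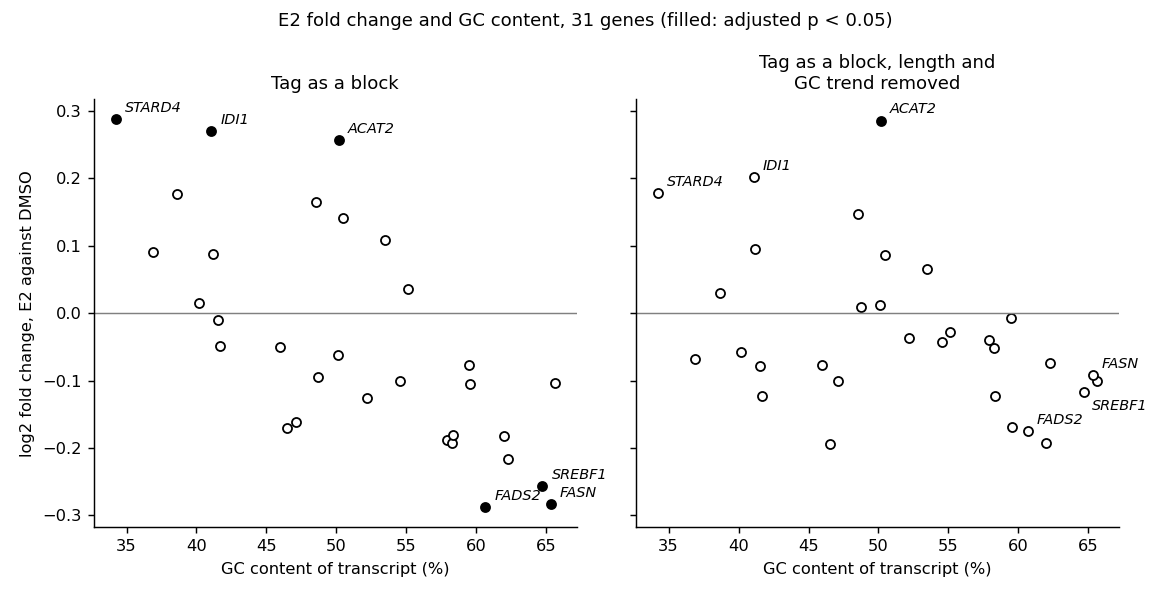
E2 log2 fold change against GC content (%) of the transcript for the 31 genes, in the blocked fit (left) and after removal of the trend on length and GC content (right), filled where the adjusted p was under 0.05. On the left the called genes lie at the ends of a slope from STARD4 (34.2% GC) to FASN (65.3% GC), except ACAT2, and on the right ACAT2 alone is filled.

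The calls for E2 also moved with the tool. With DESeq2 in place of edgeR, FASN and FADS2 passed and no gene passed in the upward direction, and with DESeq2's size factors in edgeR, SREBF1 and FADS2 passed. SCAP passed as lower with library-size scaling, and also where each library had to hold at least 10 counts of a gene.

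The tags differed far more than the treatments. In B212, 18 of the 31 genes were lower than in A4 and 2 were higher, in the edgeR fit with treatment as a covariate. The lower genes were 58.1% of the 31, where 25.8% of all tested genes were lower and 25.2% higher. These shares were not matched for depth either, and the wider set also holds genes with few counts. The fold change was below 0 for 26 of the 31 genes (83.9%, beside 49.5% of all tested genes), and its median was -0.26 beside 0.00 (0.0042) over all genes. On the log2 scale, summed CPM of the 31 genes differed between B212 and A4 by -0.27 with DMSO and by -0.30 with E2. Each tag stands for 1 line of cells, so these values compare those cells and no wider group.

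**Figure D5:**
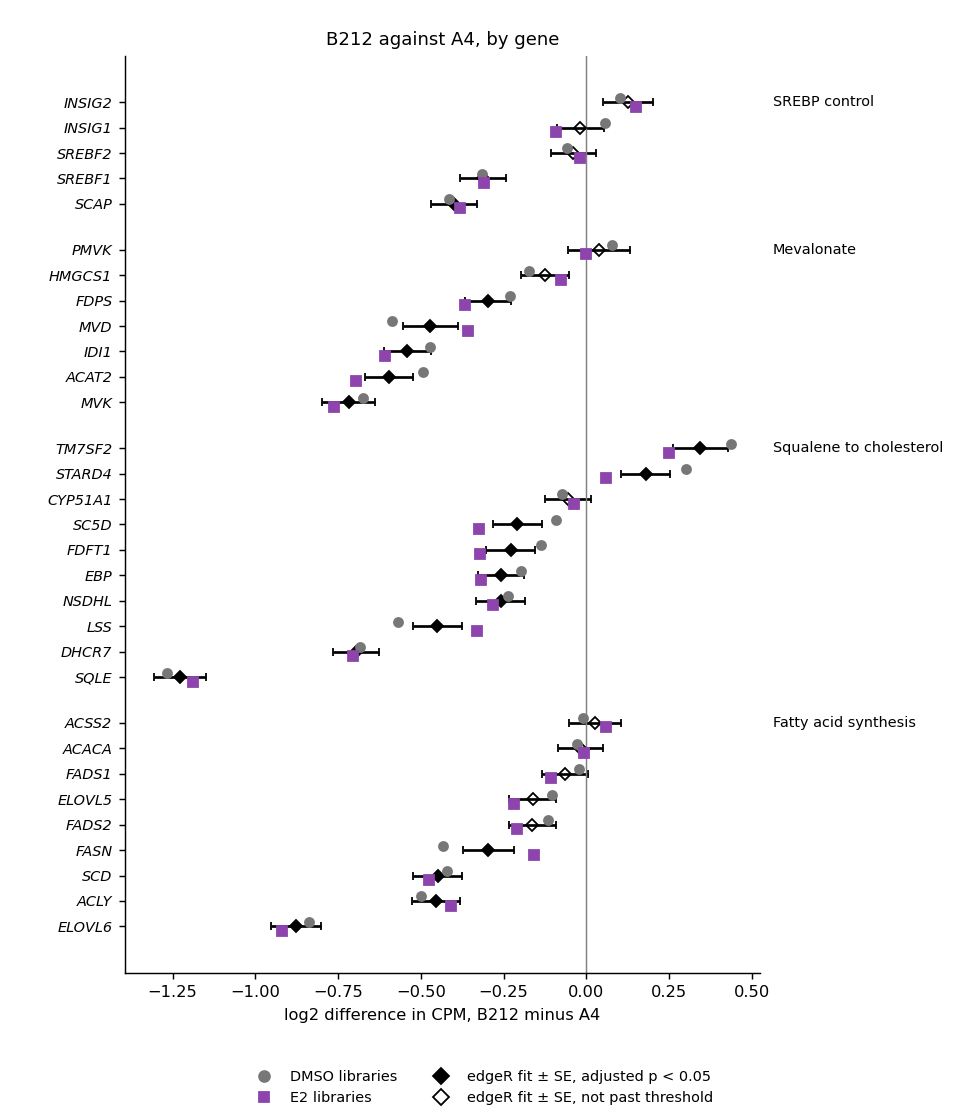
Log2 difference of B212 from A4 for the 31 genes, with circles for the DMSO pair, squares for the E2 pair and diamonds with bars for the edgeR fit ± SE, filled past the threshold. SQLE lies farthest left, TM7SF2 and STARD4 are the 2 filled diamonds right of 0, and the other 18 filled diamonds lie left of 0.

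SQLE, the squalene epoxidase that is a rate-limiting step after mevalonate, showed the largest difference of the 31. It had 4685 counts in A4 DMSO, 4541 in A4 E2, 2267 in B212 DMSO and 1782 in B212 E2, which is 64.0, 55.4, 26.6 and 24.3 CPM. The A4 and B212 libraries did not overlap. The B212 to A4 ratio was 0.427, with a log2 difference of -1.23 ± 0.08 (edgeR adjusted p = 7.8e-11). The 20 tested genes nearest to SQLE in gene order had a median of -0.10 and a lowest value of -0.53, so SQLE was under all of them. This look at neighbours was added after the values were seen.

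ELOVL6 had 4866, 5959, 3176 and 2815 counts in the same order of libraries, which is 66.4, 72.6, 37.2 and 38.4 CPM. The log2 difference was -0.88 ± 0.08 (edgeR adjusted p = 6.9e-09), while its 20 neighbours had a median of 0.18 and a lowest value of -3.29. Its paralog ELOVL5, which elongates polyunsaturated fatty acids, had 19488, 21957, 21129 and 16853 counts, or 266, 268, 248 and 229.9 CPM. Both A4 values were above both B212 values for ELOVL5 too, by less, and the difference of -0.16 ± 0.07 did not pass (edgeR adjusted p = 0.0622).

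MVK had 2912, 3188, 2128 and 1679 counts, which is 39.8 and 38.9 CPM in A4 and 24.9 and 22.9 CPM in B212. The log2 difference was -0.72 ± 0.08 (edgeR adjusted p = 3.4e-07), beside a neighbour median of -0.08 and a lowest neighbour of -1.44. DHCR7, the reductase of the last step to cholesterol, had 20418, 20330, 14804 and 11137 counts, which is 279, 248, 173 and 152 CPM. Its log2 difference was -0.70 ± 0.07 (edgeR adjusted p = 6.8e-08), beside a neighbour median of -0.01 and a lowest neighbour of -2.80. ACAT2, whose counts are given above, differed by -0.59 ± 0.07 (edgeR adjusted p = 1.0e-06). Its neighbours had a median of -0.23 and a lowest value of -1.24, and TCP1, which overlaps it, was at -0.50. For MVK, DHCR7 and ACAT2 both A4 libraries were above both B212 libraries.

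By role, the mevalonate genes had 5 of 7 lower in B212 (71.4%, beside 25.8% of all tested genes) and 2 not past the threshold. IDI1 (-0.54), MVD (-0.47) and FDPS (-0.30) joined MVK and ACAT2, and HMGCS1 (-0.12) and PMVK (0.04) did not pass. Of the later sterol genes, 7 of 10 were lower (70.0%), 2 were higher (20.0%, beside 25.2% of all tested genes) and CYP51A1 (-0.06) did not pass. The lower ones ranged from SQLE and DHCR7 through LSS (-0.45), NSDHL and EBP (-0.26 each) to FDFT1 (-0.23) and SC5D (-0.21). TM7SF2, a sterol reductase, was higher by 0.34 ± 0.08 (edgeR adjusted p = 0.00199) and STARD4 by 0.18 ± 0.07 (edgeR adjusted p = 0.0482). The STARD4 call was lost with DESeq2 (adjusted p = 0.164), DESeq2 size factors (0.0796 in edgeR), no filter (0.109), limma-voom (0.0529) and no treatment term (0.421), and STARD4 was at -0.01 once the length and GC trend was taken out. The calls of FDFT1 (0.0703) and SC5D (0.113) were lost with library size only, that of SC5D with DESeq2 (0.0601), and those of TM7SF2, FDFT1, SC5D, NSDHL and EBP with no treatment term.

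Of the fatty acid genes, ELOVL6, ACLY (-0.45), SCD (-0.45) and FASN (-0.30) were lower in B212 (44.4%, beside 25.8% of all tested genes). The other 5 did not pass, among them FADS2 (-0.16 ± 0.07, edgeR adjusted p = 0.0626) and FADS1 (-0.06). Of the regulators, SCAP (-0.40) and SREBF1 (-0.31) were lower (40.0%, beside the same 25.8%). The calls of FASN and SREBF1 were lost with no treatment term (edgeR adjusted p = 0.160 and 0.113). SREBF2 (-0.04), INSIG1 (-0.02) and INSIG2 (0.13) did not pass. Calls were also gained under other settings. With the length and GC trend removed, HMGCS1 (-0.23, edgeR adjusted p = 0.00495) and ELOVL5 (-0.24, 0.00187) passed as lower in B212. So did CYP51A1 (-0.14, edgeR adjusted p = 0.0461) and FADS2 (-0.16, 0.0452). INSIG2 passed as higher with library size only (0.19, edgeR adjusted p = 0.0484). The summed epithelial markers were higher in B212 (2641 and 2410 CPM with DMSO and E2) than in A4 (2124 and 2029 CPM), and the summed stromal markers were lower (43.0 and 35.1 CPM against 130.4 and 94.2 CPM). Their part in the differences of the synthesis genes was not tested.

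Genes of the same pathways outside the 31 were counted from lists of related genes. Of 10 other genes of sterol and isoprenoid synthesis, 1 rose with E2 in the blocked fit and none fell. That is 10.0%, beside 9.56% of all tested genes called in either direction. Shares of the related lists and of all genes were not matched for depth. The one that rose was MSMO1, a sterol methyl oxidase, with 18497, 27377, 20433 and 19995 counts and a log2 fold change of 0.30 ± 0.07 (edgeR adjusted p = 0.0166). It was 0.13 with the length and GC trend removed (adjusted p = 0.215 in edgeR). HSD17B7, a sterol keto reductase, came next by p and did not pass (0.36 ± 0.12, edgeR adjusted p = 0.0546). In B212, 7 of these 10 were lower than in A4 (70.0%) and 1 was higher (10.0%), beside 25.8% and 25.2% of all tested genes.

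Of 10 other genes that control SREBP processing, none passed for E2 (0%, beside 9.56% of all tested genes). RNF139 and PAQR3 were among the closest (edgeR adjusted p = 0.131 and 0.140). In B212, 4 of the 10 were lower (40.0%) and none higher, beside 25.8% and 25.2% of all tested genes. Of 17 genes of sterol uptake, transport and efflux, 1 fell with E2 (5.88%, beside 9.56% of all tested genes called) and none rose. In B212, 5 of the 17 were lower (29.4%) and 3 higher (17.6%), where 25.8% and 25.2% of all tested genes were. The one that fell was ABCA1, the cholesterol efflux pump, with 112 counts in A4 DMSO, 111 in A4 E2, 1322 in B212 DMSO and 693 in B212 E2. Its log2 fold change was -0.55 ± 0.14 (edgeR adjusted p = 0.0175), with -0.18 in A4 and -0.71 in B212. Between the tags ABCA1 went the other way from most synthesis genes, with B212 above A4 by 3.08 on the log2 scale (edgeR adjusted p = 4.6e-13).

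Of 26 other genes of fatty acid synthesis, 25 were tested, and 12.0% of these were called for E2, beside 9.56% of all tested genes. With E2, 2 rose (MLXIPL, the carbohydrate response factor ChREBP, 0.42 ± 0.11, edgeR adjusted p = 0.0238, and OXSM, of mitochondrial fatty acid synthesis, 0.36 ± 0.09, 0.0226). MLXIPL had 412, 514, 1294 and 1709 counts. Its E2 difference was 0.16 in A4 and 0.62 in B212, and B212 was above A4 by 1.67. OXSM had 862, 1317, 1210 and 1251 counts, with 0.45 in A4 and 0.27 in B212. Once the length and GC trend was removed, OXSM was at 0.19 and did not pass (edgeR adjusted p = 0.173). MLXIPL was then at 0.52 and still passed (edgeR adjusted p = 0.00763). SCD5, a paralog of SCD, fell (-0.28 ± 0.07, edgeR adjusted p = 0.0160). It had 8459, 8038, 15118 and 10410 counts, and B212 was above A4 by 0.58, opposite in sign to SCD. With the trend removed, SCD5 was at -0.26 with E2 and still passed (edgeR adjusted p = 0.0171). In B212, 8 of the 25 were lower (32.0%) and 7 higher (28.0%), near the shares of all tested genes given above. Of 20 genes of fatty acid oxidation, 1 rose with E2 (5.00%, beside 9.56% of all tested genes called) and none fell. ETFA, which passes electrons from the oxidation enzymes to the respiratory chain, had 9884, 14484, 10349 and 10444 counts and a log2 fold change of 0.31 ± 0.07 (edgeR adjusted p = 0.0102). With the trend removed, ETFA was at 0.21 and still passed (edgeR adjusted p = 0.0443). HADH (0.21, adjusted p = 0.0737) and CPT1A (-0.15, 0.178) did not pass in edgeR. In B212, 7 of the 20 were lower (35.0%) and 4 higher (20.0%), beside 25.8% and 25.2% of all tested genes.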

How the data were processed

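Per the labels' protocols, a stranded kit with poly(A) selection was used on 500 ng of RNA per sample. The authors deposited raw counts, as whole numbers per gene symbol. The submitters' processing notes name HISAT2, SAMtools, featureCounts, DESeq2 and hg19, without versions or roles. Left out were 4 columns of counts whose names match no sample.

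Genes were kept by filterByExpr (minimum count 10) in edgeR 4.0.16, scaled with its TMM factors, and tested with its quasi-likelihood test, with Benjamini-Hochberg adjustment over all 15599 genes and a threshold of 0.05. CPM are TMM-scaled. E2 was compared with DMSO with no block (the planned main fit) and with the column tag as a block. The tags were compared with treatment as a covariate. Same-tag libraries deviated together from their group means (Pearson r = 0.871 across genes). The pairing rests on the column names, since the labels' clone numbers could not be linked to them, and the planned clone comparison was made between tags. Nothing says that libraries came from separate cultures beyond the clones, so p-values describe these 4 libraries only. With no block, the spread is that between the tags. In the blocked and tag fits it is what remains after tag and treatment, with 1 residual degree of freedom, and is taken largely from all genes. Those p-values therefore do not measure how much a gene varies between clones. Scripts were tested on simulated counts.

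The 31 genes and the related lists were chosen with earlier results of these data known, so no list test was made. Counts in every library are given for genes past the threshold for E2 with the block, for the 5 called genes with the largest tag difference and for their paralogs among SREBF1 and SREBF2, INSIG1 and INSIG2, FADS1 and FADS2, ELOVL5 and ELOVL6. For related lists the 3 smallest p-values are named. Some items that this rule took are not reported here.

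Length and GC content, of the longest GENCODE 29 transcript with coding ones preferred, were found for 93.6% of tested genes and all 31 genes. Their trend was fitted with mgcv 1.9.3. Alternatives used DESeq2 1.42.0, limma 3.58.1 (voom), other scalings, filters and thresholds, and left out libraries. The software was R 4.3.3, and Python 3.11.15 and matplotlib 3.10.9 for promoters and figures. RefSeq gene order served for neighbours.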

Additional observations from a re-analysis of the deposited data

Results flagged for a closer look

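For 6 genes the E2 difference was above 0 in one tag and below 0 in the other, and this difference between tags was not tested, since each tag has 1 library per treatment. The B212 minus A4 gap in the E2 log2 difference was -0.15 for INSIG1 (0.02 in A4 and -0.12 in B212), 0.10 for HMGCS1 (-0.03 and 0.06) and 0.23 for MVD (-0.22 and 0.01). It was -0.14 for FDPS (0.10 and -0.03), 0.037 for CYP51A1 (-0.03 and 0.01) and -0.12 for ELOVL5 (0.01 and -0.11). The counting error of the gap was 0.016 (HMGCS1) to 0.056 (MVD), and it covers counting error only. None of the 6 passed for E2 in the blocked fit.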

How the results depend on the processing

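The count of genes past the threshold for E2 was 0 with no block and 6 with the replicate block, which pairs libraries by tag. With no block it was 0 under every alternative run, including each left-out library; over all genes DESeq2 called 1. With the block it was 2 with DESeq2 size factors (717 of all genes), 2 with DESeq2 (533), 0 at an adjusted p of 0.01 (415), 1 with the length and GC trend removed (702), 0 with no replicate block, and 6 or 7 under the others. The tag comparison called 20, 12 with no treatment term (4456 of all genes, against 7950) and 17 to 23 under the others. The median E2 fold change ranged from -0.099 to -0.016 when 1 library was left out, lowest without A4 E2 and nearest 0 without B212 DMSO; leave-outs of the blocked and tag fits gave values with no test.

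Signs that reversed under scaling or trend removal belonged to genes not called, except STARD4 between tags. For E2 these were HMGCS1 (-0.00545) with library size only, and INSIG2 (-0.0682), HMGCS1 (-0.0579), FDPS (-0.0284), ACACA (0.00852) and FADS1 (0.0124) with the trend removed. Between tags they were SREBF2 (0.0281), INSIG1 (0.0488), CYP51A1 (0.0109), ACACA (0.0492) and FADS1 (0.00269) with library size only, and INSIG2 (-0.00992) and STARD4 (-0.0101) with the trend removed, an alternative chosen after seeing the data. Library size only moved the median of all genes between tags from 0.0042 to 0.071. Leaving out 1 library turned the sign for E2 of INSIG1, HMGCS1, MVD, FDPS, CYP51A1 and ELOVL5, and between tags of PMVK, INSIG1 and ACSS2, none of them called in that comparison. Causes were not tested. The counting error of an E2 difference within a tag was at most 0.063, below the lowest SE of the blocked fit (0.068). It was not small for every gene, as for PMVK (0.063 in A4 and 0.062 in B212, beside an SE of 0.094). Having 2 libraries a group limits the precision.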
